A study of Rattus norvegicus with 9 samples.

Results

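Immature and mature B cells of the rat tibial osteotomy site were chosen cell by cell from their UMI counts (unique molecular identifiers, each standing for 1 captured transcript). A cell was taken when it carried at least 1 UMI of Ms4a1, at least 1 of Cd79a, at least 2 of Ebf1 and at least 2 of Cd74, with 0 UMIs of Rag1, Dntt and Mki67. This rule found 7831 cells, which was 6.86% of the 114232 cells with at least 200 detected genes and at most 20% mitochondrial UMIs. They are called gated B cells here, and since these 7 genes chose them, the levels of those genes describe the gate and are not findings. The cells came from male Sprague-Dawley rats aged 6 to 8 weeks, all of which carried a circular osteotomy of the proximal tibia (TO) and a skin wound on the back of the foot. In the TOE arm, radial extracorporeal shock waves at 3 bar were also given over the osteotomy on day 2 and day 4 after injury. Per the study, the 2d libraries of this arm were taken before the day 4 session. Day and number of sessions thus go together within TOE. The libraries are named by arm, day of the session and hour of collection: TO_2d_0h, TO_2d_4h, TO_4d_4h, TO_4d_24h, TOE_2d_4h, TOE_2d_24h, TOE_4d_4h and TOE_4d_24h, with 1 library each. TO_2d_24h was not analysed here, and the number of rats in a library is not given in the sources used here.

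B cells form in the bone marrow, where pro-B cells rearrange the heavy chain gene and pre-B cells the light chain genes with the help of the recombinase Rag1 and Rag2. A cell with a working receptor becomes an immature B cell, stops recombination, takes up surface markers such as CD20 (encoded by Ms4a1) and MHC class II, and leaves for the spleen, where survival depends on the cytokine BAFF and its receptor (Tnfrsf13c). Mature B cells also recirculate to the marrow. The receptor signals through Cd79a and Cd79b to kinases such as Lyn, Syk and Btk, and its strength is set by coreceptors such as Cd22 and Cd72.

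The libraries kept 12329 to 16945 cells with a median of 4572 to 5790 UMIs per cell. B lineage cells (at least 1 UMI of Cd79a and 2 of Ebf1) made up 68.5% of all cells kept, and gated B cells were 10.0% of these. The gated B cells had a median of 3569 to 4409 UMIs, and 216 of them (2.76%) had a Scrublet doublet score above 0.25. Any pair of libraries shared 38 to 108 barcodes, at most 0.779% of the smaller library. TOE_4d_24h stood apart from the other 7 libraries, and not in its gated B cells alone. In these cells the inhibitor of NF-kappaB Nfkbia stood at 122 CPM (UMIs of the gene per 1000000 UMIs of the gated B cells) against 553 to 1048 elsewhere, the chemokine receptor gene Cxcr4 at 162 against 475 to 834, and the haemoglobin gene Hba-a1 at 8.33 against 543 to 1923. Neutrophils (at least 50 UMIs of S100a8) were 30.1% of the cells kept in TOE_4d_24h and 9.65% to 17.6% elsewhere. Akap2 stood at 73.1 CPM in its resting pre-B cells, defined below, against 212 to 452 elsewhere. In its neutrophils Akap2 stood at 9.88 CPM against 18.0 to 45.7. The calls by hour of the gene lists described below are therefore also given without this library where their number changed. The library was singled out from values of the gated B cells, so those fits are a description. Leaving out any other library lowered the total of calls, as given below.

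Gated B cells made up 6.03% to 7.41% of the cells kept in each library, with no difference by hour, arm or day past the spread between libraries. They numbered 923 (6.03% of the cells kept) in TO_2d_4h, 885 (6.95%) in TO_4d_4h, 1184 (6.99%) in TOE_2d_4h and 943 (6.81%) in TOE_4d_4h. Among the other libraries they numbered 1062 (7.32%) in TO_2d_0h, 1008 (7.15%) in TO_4d_24h, 1070 (7.41%) in TOE_2d_24h and 756 (6.13%) in TOE_4d_24h. The lowest shares were those of TO_2d_4h and TOE_4d_24h, 1 of each arm. The mean share was 6.69% ± 0.451 (SD, n = 4) at 4 h and 7.00% ± 0.591 (n = 4) at 0 or 24 h, a difference of -0.31 percentage points (exact permutation test over libraries, two-sided, p = 0.429). Between arms the mean was 6.83% ± 0.533 in TOE and 6.86% ± 0.576 in TO (exact permutation p = 0.943), and between days 6.76% ± 0.441 on day 4 and 6.94% ± 0.634 on day 2 (exact permutation p = 0.571). The smallest p that 4 libraries against 4 allow is 0.0286, and the p-values adjusted over the 3 comparisons were 0.857, 0.943 and 0.857. Libraries of other arms and days stand in as replicates here, so these p-values measure only the spread between these libraries.

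**Figure D1:**
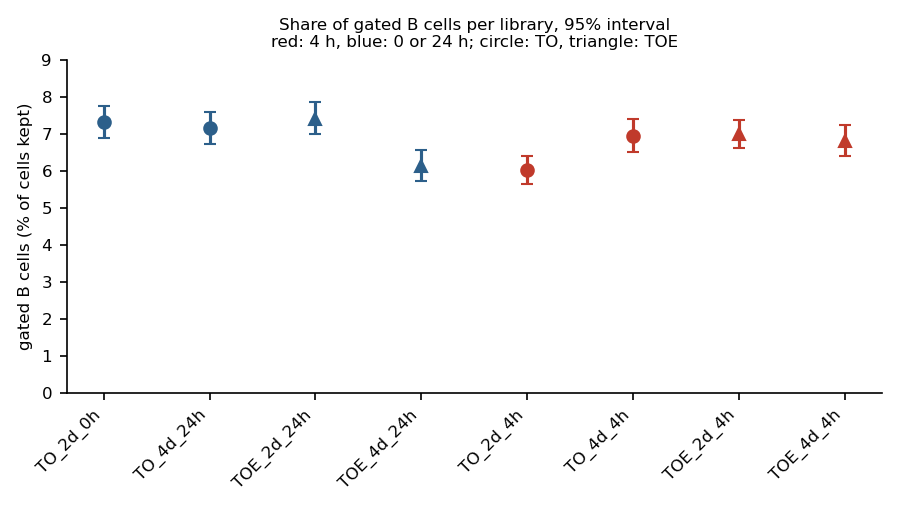
Share of gated B cells among the cells kept (percent, y axis) in each library (x axis), with exact 95% Clopper-Pearson intervals that cover counting error only; red marks 4 h, blue 0 or 24 h, circles TO and triangles TOE. All 8 shares lie between 6.03% and 7.41%, and the groups by hour and by arm overlap.

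In libraries matched for day and hour, the ratio of the TOE share to the TO share was 1.16 at 2d 4h (exact 95% interval 1.06 to 1.27), 0.979 at 4d 4h (0.892 to 1.07) and 0.858 at 4d 24h (0.780 to 0.944). The ratio was above 1 in the first pair and below 1 in the other two. Each pair holds 1 library per arm, so the intervals cover counting error only and no pair was tested.

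The markers of the label were present. Of those outside the gate, Bank1 and Fcmr lay far above the next stage down, and Tnfrsf13c and Ikzf3 less far. Bank1, a scaffold protein of receptor signalling, had a median of 648 CPM over the 8 libraries (357 to 963) in gated B cells. In resting pre-B cells (B lineage cells with at least 1 UMI of Rag1 and 0 of Ms4a1, Dntt and Mki67) its median was 31.5 CPM (24.1 to 60.1). Fcmr, the receptor for IgM, stood at 538 CPM (357 to 619) against 42.6 CPM (29.7 to 69.6), and did not overlap between the populations. Tnfrsf13c, the BAFF receptor, stood at 396 CPM (330 to 523) against 134 CPM (14.2 to 157), and Ikzf3, the transcription factor Aiolos, at 2308 CPM (1996 to 2585) against 1064 CPM (950 to 1445). These 4 genes were not gate genes, yet gated and pre-B cells were picked by counts from the same cells, so the contrast is a description with no test. The gate genes Ms4a1 and Cd74 stood at 652 CPM (548 to 1113) and 4598 CPM (3092 to 5333) in gated B cells.

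Other genes also differed between the stages, again as a description with no test. The gates used Rag1, Ms4a1 and Cd74. Genes that go with them, such as Rag2 and the MHC class II genes, were thus partly set by the gates. MHC class II genes, which present antigen, were near their floor in pre-B cells: RT1-Da had a median of 837 CPM in gated B cells and 51.0 in pre-B cells, RT1-Ba 415 and 25.4, and their transactivator Ciita 50.2 and 2.14. The survival gene Bcl2 had 99.3 and 6.47, the inhibitory coreceptor Cd22 81.3 and 8.63, and the transcription factor gene Sox5 2022 and 127. Each of these was higher in gated B cells in 8 of 8 libraries. In the other direction, the recombinase gene Rag2 had a median of 2.15 CPM in gated B cells and 49.6 in pre-B cells, Arpp21 19.5 and 425, Sox4 215 and 899, the surrogate light chain relative Vpreb3 219 and 452, and the interleukin 7 receptor gene Il7r 14.8 and 41.6. These 5 were lower in gated B cells in 8 of 8 libraries.

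**Figure D2:**
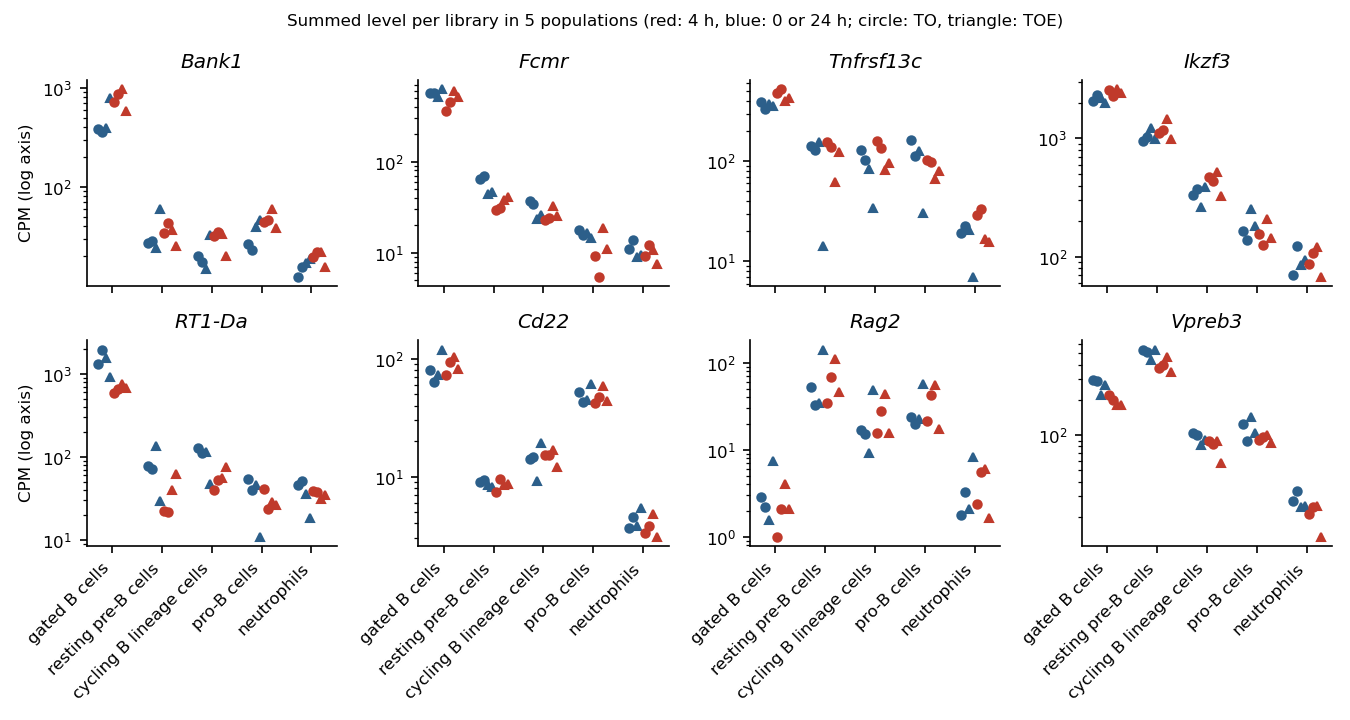
Level of 8 genes (CPM of the summed UMIs, log axis) in 5 populations (x axis), 1 point per library; red marks 4 h, blue 0 or 24 h, circles TO and triangles TOE. Bank1, Fcmr, Tnfrsf13c, Ikzf3 and RT1-Da are highest in gated B cells, while Rag2 and Vpreb3 are highest in resting pre-B cells, in each of the 8 libraries.

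Levels of these genes were compared with those in cells that should lack them. With each cell thinned to 2000 UMIs, Bank1 was detected in 51.4% of 7348 gated B cells, 5.34% of 16989 pre-B cells and 2.62% of 17609 neutrophils. The neutrophils were cells with at least 50 UMIs of S100a8. Without thinning, the median library had Bank1 in 66.9% of gated B cells and 10.1% of neutrophils. Fcmr was found in 62.0%, 8.07% and 1.74% of the thinned cells in the same order, Tnfrsf13c in 48.2%, 17.4% and 2.57%, and Ikzf3 in 93.7%, 75.3% and 10.6%. Genes of other cells showed no such gap: the collagen gene Col1a1 was found in 26.9% of gated B cells, 26.2% of pre-B cells and 24.5% of neutrophils, and Hba-a1 in 55.2%, 54.2% and 51.6%. The neutrophil gene S100a9 was found in 82.0% of gated B cells and 82.7% of pre-B cells.

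The edge of the gate was not sharp. The 2509 gated cells with exactly 1 UMI of Ms4a1 had 406 CPM of Bank1 and 432 CPM of Fcmr. The 6275 cells that met every other condition but had 0 UMIs of Ms4a1 had 132 and 160 CPM, less than the gated cells but above the pre-B cell medians. At the edge set by Cd74, 293 cells with 2 UMIs had 240 CPM of Bank1 and 299 cells with 1 UMI had 189. At the edges set by Cd79a and Ebf1, 147 and 74 cells lay just inside and 101 and 63 just outside.

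The gated cells covered a range of maturity. Vpreb3, which is lost as B cells mature, was detected in 34.7% of the thinned gated cells. Fcer2 (CD23) or Cr2 (CD21), genes of more mature B cells, were detected in 11.0%: 8.06% of cells had one of these without Vpreb3, 31.8% had Vpreb3 alone, 2.95% had both and 57.2% had neither. By library, the thinned share with Fcer2 or Cr2 was 9.60%, 10.0%, 15.4% and 11.0% at 4 h (TO_2d_4h, TO_4d_4h, TOE_2d_4h and TOE_4d_4h, the order used from here on). It was 8.15%, 6.78%, 10.4% and 17.9% in the other libraries (TO_2d_0h, TO_4d_24h, TOE_2d_24h and TOE_4d_24h, the order used from here on). TOE_4d_24h was highest and TO_4d_24h lowest, so the groups by hour overlapped. After thinning the arms did not overlap, with 6.78% to 10.0% in TO and 10.4% to 17.9% in TOE, and this was not tested. Without thinning the arms overlapped, since TO_4d_4h had 21.0%, above TOE_2d_24h with 20.0% and TOE_4d_4h with 20.4%. The thinned share with Vpreb3 was 32.9%, 30.3%, 29.7% and 27.8% at 4 h and 44.3%, 40.9%, 33.4% and 38.4% otherwise. These groups did not overlap, though 32.9% in TO_2d_4h and 33.4% in TOE_2d_24h lay close together. Other cells of TO libraries differed in the same direction, while their TOE values are not given one by one here. In pre-B cells the share was 49.8% and 50.6% in TO_2d_4h and TO_4d_4h, and 62.2% and 61.7% in TO_2d_0h and TO_4d_24h. Over all 8 libraries the pre-B share ran from 47.4% to 62.2%. In neutrophils the share was 3.25% and 3.36% in TO_2d_4h and TO_4d_4h, and 5.41% in TO_2d_0h. The heavy chain genes Ighm and Ighd, which define immature and mature B cells at the surface, were not matched by symbol in the feature table, so the label rests on the genes above.

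Without thinning, 1530 gated cells had a UMI of Fcer2 or Cr2, 3340 of the rest had Vpreb3 and 2961 had neither. Pooled over the libraries, Bcl2 was at 188 CPM in the first class, 44.8 in the second and 126 in the third. The follicle homing receptor gene Cxcr5 was at 32.2, 7.49 and 13.1 CPM, and Ciita at 76.7, 37.8 and 53.6. All 3 genes were highest in the cells with Fcer2 or Cr2 and lowest in those with Vpreb3, but they were picked with their values known. Other genes of maturation did not follow this order. Tnfrsf13c was at 424, 431 and 374 CPM, Cd55 at 158, 170 and 160, and Ccr7 at 16.4, 14.9 and 19.8. Sox5 was highest in the second class, with 1846, 2168 and 1571 CPM. The first class also had deeper cells in every library (median 4164 to 5219 UMIs against 3479.5 to 4256.5 in the second), and the part of depth in these differences was not tested.

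The hour of collection gave calls in the gated B cells, while arm and day gave 0 in the same fit. Between 4 h and the other hours, 643 of 12033 genes tested were higher at 4 h (5.34%) and 756 were lower (6.28%) in edgeR's quasi-likelihood test with arm and day as covariates and a Benjamini-Hochberg adjusted p under 0.05. The genes moved in both directions, with a median log2 difference over all genes of 0.01. With no scaling beyond library size the split was 962 higher and 625 lower, at a median of 0.09. The 4 h group held 4 libraries and so did the other. The total depended on single libraries: it was 51 without TO_2d_4h, 56 without TO_2d_0h, 75 without TO_4d_4h and 82 without TO_4d_24h, 665, 755 and 759 without TOE_2d_4h, TOE_4d_4h or TOE_2d_24h, and 3284 without TOE_4d_24h. In that last fit 1541 of 12301 genes were higher (12.5%) and 1743 lower (14.2%), among them 1389 of the 1399 genes called with all libraries.

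Measures of the whole library moved with the hour as well. The median mitochondrial share of a gated B cell was 2.97%, 2.77%, 2.10% and 2.12% at 4 h and 3.91%, 5.35%, 4.39% and 3.63% otherwise, with no overlap. The 15 mitochondrially encoded genes, whose UMIs the filter on cells used, had a median log2 difference of -0.85 between 4 h and the other hours. In pre-B cells it was -0.87 and in neutrophils -0.77. These genes stayed in the fit, and 6 of the 15 were called lower, beside 6.28% of all genes. Since the filter used them, their calls are given as a description. Collagens and other markers of mesenchymal cells (10 genes) summed to 123 to 696 CPM in gated B cells at 4 h and 1407 to 3621 otherwise. In neutrophils the same genes summed to 141 to 1349 and 1752 to 5321 CPM. Of the 9 tested in gated B cells, 6 were called lower, beside 6.28% of all genes, or 7 without TOE_4d_24h, beside 14.2%. The part that mitochondrial content and free RNA have in the hour result was not tested, and for some of the genes below the difference in pre-B cells and neutrophils of the same libraries is set beside that in gated B cells.

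**Figure D3:**
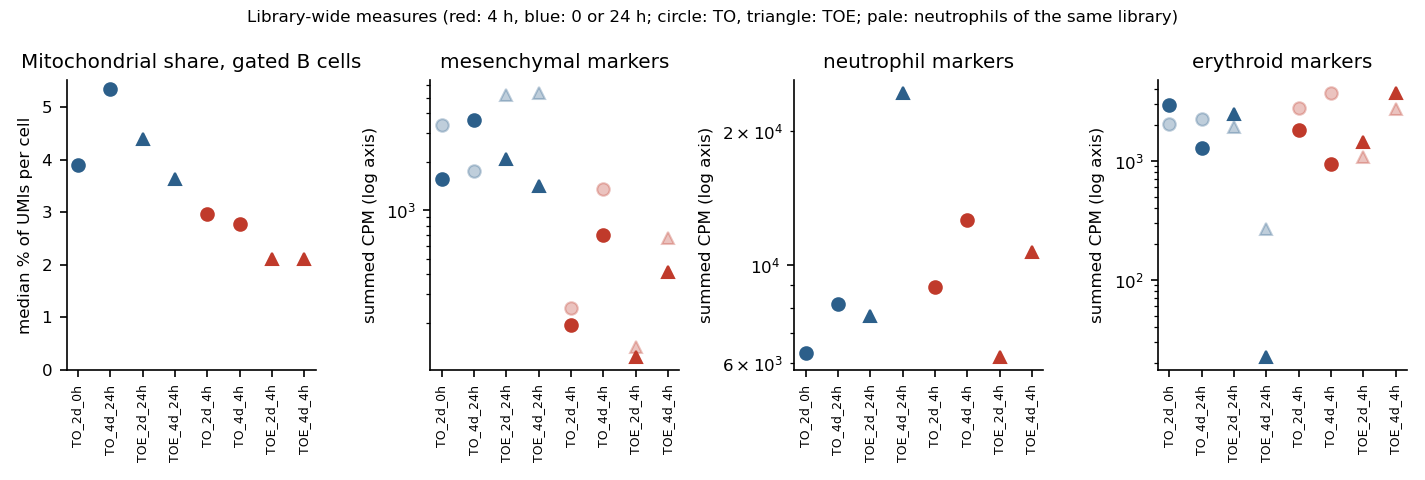
Median mitochondrial share of gated B cells (percent of UMIs per cell) and summed CPM of the mesenchymal, neutrophil and erythroid marker lists (log axis) per library; red marks 4 h, blue 0 or 24 h, circles TO, triangles TOE, and pale points the neutrophils of the same library. The 4 h libraries lie lowest in the first 2 panels, and TOE_4d_24h lies apart in the last 2, with 24328 CPM of neutrophil markers and 22.7 CPM of erythroid markers.

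The receptor complex and its coreceptors were lower at 4 h in part. Of 11 tested genes of a list of 13, Cd79b, Cd72 and Cd81 fell, Pecam1 rose and 7 did not pass, beside 6.28% of all genes lower and 5.34% higher, with a median log2 difference of -0.03. Cd79b, the signalling partner of Cd79a, stood at 517, 722, 845 and 620 CPM at 4 h and at 1084, 986, 926 and 1443 CPM otherwise. The groups did not overlap, and the log2 difference was -0.79 (SE 0.18, edgeR adjusted p = 0.032), against -0.57 in pre-B cells and -0.29 in neutrophils. Cd79b passed in 10 of 15 alternative settings (other scalings, filters or gates, DESeq2, or 1 library left out). The gate gene Cd79a was also lower in each 4 h library (1975 to 2383 CPM against 3092 to 3887), which is given as a description. Cd81, a tetraspanin of the coreceptor complex, stood at 174, 199, 259 and 212 CPM at 4 h and 459, 518, 377 and 363 CPM otherwise (log2 difference -1.10, SE 0.20, edgeR adjusted p = 0.018), against -0.997 in pre-B cells and -0.55 in neutrophils. Cd72, an inhibitory coreceptor, stood at 366 to 480 CPM and 600 to 665 CPM (log2 difference -0.65, edgeR adjusted p = 0.026), against -0.64 and -0.40. Pecam1, an inhibitory adhesion receptor, went the other way with 348, 414, 483 and 380 CPM at 4 h and 114, 93.6, 113 and 367 CPM otherwise. The high value was that of TOE_4d_24h, which overlapped with the 4 h group (log2 difference 1.34, edgeR adjusted p = 0.039), and the difference was 1.49 in pre-B cells and 0.76 in neutrophils. Cd22 moved by 0.01 (edgeR adjusted p = 0.98).

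Downstream of the receptor the outcome turned on TOE_4d_24h. With all libraries, 0 of 24 receptor signalling genes passed in edgeR (9 at an unadjusted p under 0.05, and 2 higher in DESeq2, which called 7.29% of all genes higher and 7.84% lower), although the median log2 difference was 0.31 against 0.01 over all genes. Without TOE_4d_24h, 11 of the 24 rose and 1, Shc1, fell in edgeR, against 12.5% and 14.2% over all genes. The kinase gene Lyn stood at 2726, 2877, 2900 and 2837 CPM at 4 h and at 1803, 1715, 1631 and 2476 CPM otherwise. Prkcb, the kinase that links the receptor to NF-kappaB, stood at 957, 1226, 1388 and 1072 CPM and at 600, 447, 555 and 1381 CPM. In both genes 3 of the other libraries lay far below the 4 h group and TOE_4d_24h lay at or near it. Without that library the log2 difference was 0.62 for Lyn (edgeR adjusted p = 0.0072), 1.02 for Prkcb (0.0032) and 0.70 for the phospholipase gene Plcg2 (0.0042). With all libraries they were 0.51, 0.66 and 0.52, with edgeR adjusted p-values of 0.056, 0.14 and 0.085. Of 15 alternative settings, Lyn passed in 5, and Prkcb and Plcg2 passed in 1, the fit without TOE_4d_24h. Differences in pre-B cells were 0.65 for Lyn and 0.91 for Prkcb, and in neutrophils 0.24 and 0.23.

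**Figure D4:**
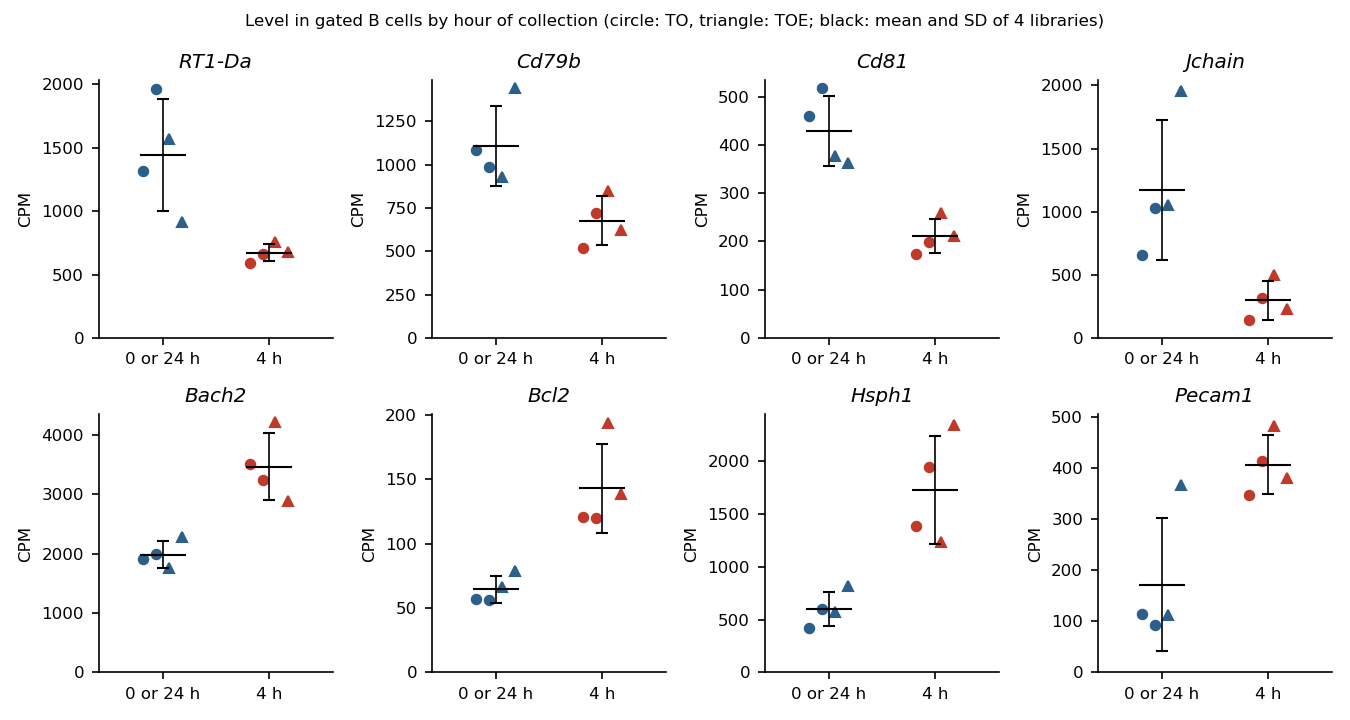
Level of 8 genes in gated B cells (CPM) by hour of collection (x axis), 1 point per library, circles TO and triangles TOE, with the mean and SD of 4 libraries in black. RT1-Da, Cd79b, Cd81 and Jchain lie lower at 4 h and Bach2, Bcl2 and Hsph1 higher without overlap, while Pecam1 overlaps through TOE_4d_24h.

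RT1-Da of the MHC class II genes fell at 4 h, and more of them did without TOE_4d_24h. The 15 genes of the list together summed to 2380, 2344, 2515 and 2628 CPM at 4 h and 3983, 5647, 4925 and 2681 CPM otherwise, and TOE_4d_24h lay just above the 4 h group. RT1-Da, the rat counterpart of a DR alpha chain, stood at 592, 658, 759 and 681 CPM at 4 h and at 1313, 1965, 1566 and 916 CPM otherwise. The groups did not overlap, and the log2 difference was -1.18 (SE 0.26, edgeR adjusted p = 0.030), against -1.20 in pre-B cells (adjusted p = 0.14, edgeR) and -0.07 in neutrophils. RT1-Da passed in 9 of 15 alternative settings, with a largest adjusted p of 0.13 in edgeR or DESeq2. After thinning, RT1-Da was detected in 52.0%, 53.9%, 57.8% and 55.5% of gated B cells at 4 h and in 68.3%, 77.8%, 72.7% and 66.2% otherwise, against 3.88% of neutrophils. It was the only 1 of 15 that passed in edgeR with all libraries, beside 6.28% of all genes lower, which is near the share of the list. The median log2 difference over the list was -0.32, and DESeq2 called 3 lower, beside 7.84% of all genes. Without TOE_4d_24h, 7 of 15 were lower and 0 higher in edgeR, against 14.2% and 12.5% over all genes: RT1-Da, RT1-Db1, RT1-Ba, RT1-Bb, RT1-DMa, RT1-DMb and RT1-Ha. RT1-Db1 stood at 861, 801, 775 and 863 CPM at 4 h and 1457, 1972, 1883 and 880 CPM otherwise, and its log2 difference was -0.99 with all libraries (edgeR adjusted p = 0.051) and -1.23 without TOE_4d_24h (0.0018). Ciita did not follow them, at 42.0 to 71.0 CPM and 31.8 to 71.3 CPM (log2 difference 0.03, edgeR adjusted p = 0.94).

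Many class II genes share a promoter element, the Y box, which binds the factor NF-Y. It is shown for 4 genes that were lower at 4 h without TOE_4d_24h, of which RT1-Da alone passed in edgeR with all libraries. Within 250 bases before and 50 after the start site in RefSeq (assembly GRCr8), the Y box letters CTGATTGG were found on either strand in 8 of 13 list genes with a promoter entry, and in 3.50% of all 33469 promoters. RT1-Db2, RT1-DOa and Rfx5 also had these letters, with log2 differences of 0.09, -0.21 and -0.22 (edgeR adjusted p = 0.84, 0.62 and 0.43), and RT1-DMa, which was lower without TOE_4d_24h, did not. The 100 bases before the start site of 4 genes are printed below, 5′ to 3′ on the strand of the gene, with the Y box in capitals. They lie on chromosome 20, at chr20:4515315-4515414 (plus strand) for RT1-Da, chr20:4560163-4560262 (minus strand) for RT1-Db1, chr20:4576957-4577056 (plus strand) for RT1-Ba and chr20:4604119-4604218 (minus strand) for RT1-Bb, just upstream of the first exon.
RT1-Da: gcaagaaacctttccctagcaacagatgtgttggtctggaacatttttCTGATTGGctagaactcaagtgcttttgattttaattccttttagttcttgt
RT1-Db1: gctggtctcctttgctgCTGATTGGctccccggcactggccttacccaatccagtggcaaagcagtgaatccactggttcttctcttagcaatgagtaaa
RT1-Ba: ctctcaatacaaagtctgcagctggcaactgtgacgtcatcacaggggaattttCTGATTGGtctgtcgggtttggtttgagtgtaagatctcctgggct
RT1-Bb: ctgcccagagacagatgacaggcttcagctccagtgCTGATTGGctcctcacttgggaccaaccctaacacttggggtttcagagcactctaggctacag
The element begins 52 bases before the start site in RT1-Da, 83 in RT1-Db1, 46 in RT1-Ba and 64 in RT1-Bb. A match is a description of these letters and not of binding.

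Some immunoglobulin and secretory genes fell at 4 h. Jchain, which joins secreted IgM and IgA, stood at 143, 316, 498 and 231 CPM at 4 h and 654, 1026, 1057 and 1953 CPM otherwise, with no overlap (log2 difference -1.99, SE 0.33, edgeR adjusted p = 0.014). The difference was -1.53 in pre-B cells and -2.35 in neutrophils. A few cells held a large part of its UMIs, since the 5 highest gated cells carried 46.6% to 76.3% of them by library. The share of thinned gated cells with Jchain was 14.9%, 16.5%, 21.4% and 12.7% at 4 h and 44.1%, 37.7%, 40.4% and 63.2% otherwise, so the gap was also present across cells. The same split was present in neutrophils, with 0.858%, 0.908%, 1.48% and 1.02% at 4 h and 5.19%, 4.82%, 2.50% and 5.35% otherwise, and in pre-B cells, with 2.12% to 4.71% and 9.84% to 16.9%. The part of free RNA in the Jchain result was not tested. Of 15 plasma cell genes, 3 fell and 0 rose, beside 6.28% and 5.34% of all genes, namely Jchain, the chaperone gene Mzb1 (log2 difference -0.80, edgeR adjusted p = 0.023) and Ssr4 of the secretory pathway (-0.70, edgeR adjusted p = 0.042). Without TOE_4d_24h, 4 of the 15 fell and 0 rose, with Sec11c of the secretory pathway added, beside 14.2% and 12.5% of all genes. A list of immunoglobulin genes, which also held Jchain, had 3 tested genes. Besides Jchain, the light chain gene Iglc1 fell (-2.07, edgeR adjusted p = 0.046), beside 6.28% of all genes. Without TOE_4d_24h Iglc1 did not pass (edgeR adjusted p = 0.071). The transcription factor genes Xbp1 and Prdm1 of that programme moved by -0.32 and -0.10 (edgeR adjusted p = 0.18 and 0.89).

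Genes of maturation and survival moved one by one. Bcl2, which blocks cell death, stood at 121, 120, 194 and 139 CPM at 4 h and 57.1, 56.5, 66.7 and 79.0 CPM otherwise, with no overlap (log2 difference 1.05, SE 0.15, edgeR adjusted p = 0.010). Its difference was 0.42 in pre-B cells and 0.17 in neutrophils. Pim2, a survival kinase, rose and Bax, a killer of the same family as Bcl2, fell (log2 difference 0.87 and -0.75, edgeR adjusted p = 0.045 and 0.046). The other 15 of 18 genes of the survival and BAFF pathway did not pass, beside 5.34% of all genes higher and 6.28% lower. Without TOE_4d_24h, 3 of the 18 rose (Bcl2, Pim2 and Map3k14) and 4 fell (Bax, Bbc3, Bcl2a1 and Bcl2l1), beside 12.5% and 14.2% of all genes. Among 34 B lineage transcription factors, Bach2, a repressor of plasma cell fate, rose from 1757 to 2286 CPM to 2890 to 4220 CPM at 4 h (log2 difference 0.72, edgeR adjusted p = 0.033), against 0.80 in pre-B cells and 0.48 in neutrophils. Klf3 rose as well (0.85, edgeR adjusted p = 0.046), and Irf8 fell (-0.72, edgeR adjusted p = 0.026), beside 5.34% of all genes higher and 6.28% lower. Without TOE_4d_24h, 8 of the 34 rose, with Bcl11a, Fli1, Foxp1, Ikzf1, Runx1 and Zeb2 added, and 3 fell, with Nfkb2 and Rela added, beside 12.5% and 14.2% of all genes. Pax5 and Foxo1 moved by 0.01 and 0.43 (edgeR adjusted p = 0.99 and 0.14). Of 17 tested pre-B and immature B cell genes, Cd24 (log2 difference 0.71) and Akap12 (0.58) rose and Vpreb3 fell (-0.53), at edgeR adjusted p-values of 0.023, 0.027 and 0.038. Over all genes 5.34% were higher and 6.28% lower. Without TOE_4d_24h, 3 of these genes rose and 4 fell, with Sox5 added to the first and Ctla2a, Hmgn2 and Myb to the second, beside 12.5% and 14.2% of all genes.

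Genes of mature B cells and of homing did not pass with all libraries. In edgeR 0 of 23 transitional and mature B cell genes passed with all libraries (2 at an unadjusted p under 0.05, and 0 in DESeq2), with a median log2 difference of 0.14. Without TOE_4d_24h only Bank1 of these did, beside 12.5% of all genes higher in that fit. Among the 20 homing and egress receptors 0 passed in edgeR (1 at an unadjusted p under 0.05), with a median of 0.18. DESeq2 called 1 of the receptors higher, beside 7.29% of all genes. Without TOE_4d_24h Rgs2 and S1pr4 of these rose, a share that did not exceed the 12.5% of all genes. Cxcr4, which holds B cells in the marrow, stood at 805, 777, 475 and 725 CPM at 4 h and 598, 685, 834 and 162 CPM otherwise, and S1pr1, which guides egress, at 124 to 208 and 61.0 to 205 CPM. Their ranges overlapped, and the log2 differences were 0.25 (SE 0.44) and -0.12 (SE 0.33). In the circadian clock list 0 of 14 tested genes passed in edgeR (3 at an unadjusted p under 0.05). DESeq2 called 2 of them lower, beside 7.84% of all genes. Without TOE_4d_24h Bmal1 rose while Cry2, Per2 and Rora fell in edgeR, beside 12.5% of all genes higher and 14.2% lower in that fit.

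Of 16 heat shock chaperones, Hsph1 and Chordc1 rose at 4 h and 0 fell, beside 5.34% and 6.28% of all genes. Hsph1, a partner of Hsp70, stood at 1381, 1943, 1237 and 2344 CPM at 4 h and 416, 600, 571 and 814 CPM otherwise, with no overlap (log2 difference 1.44, SE 0.16, edgeR adjusted p = 0.0065). It passed in all 15 alternative settings, at a largest adjusted p of 0.046, in edgeR or DESeq2. Its difference was 1.36 in pre-B cells and 0.85 in neutrophils. Chordc1, a partner of Hsp90, rose by 0.85 (edgeR adjusted p = 0.025), and the other 14 of 16 chaperones did not pass in edgeR, with a list median of 0.58. Hspa1a, an inducible Hsp70, stood at 227, 541, 259 and 854 CPM and 128, 130, 244 and 197 CPM (log2 difference 1.20, edgeR adjusted p = 0.056), while Hspa8, its constitutive relative, moved by -0.12 (edgeR adjusted p = 0.63). DESeq2 called 7 of the 16 higher, beside 7.29% of all genes. Without TOE_4d_24h, Hspd1 rose as well and Hsp90ab1 fell in edgeR, beside 12.5% and 14.2% of all genes.

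The heat shock element, which the factor Hsf1 binds, was looked for in the same promoters because Hsph1 passed under every alternative tried. The letters TTCNNGAANNTTC, or GAANNTTCNNGAA on the other strand, were found in 6 of 14 list genes with a promoter entry and in 0.798% of all promoters. The 100 bases before the start site of Hsph1, at chr12:10427268-10427367 (plus strand, GRCr8, RefSeq), are shown 5′ to 3′ with the element in capitals.
Hsph1: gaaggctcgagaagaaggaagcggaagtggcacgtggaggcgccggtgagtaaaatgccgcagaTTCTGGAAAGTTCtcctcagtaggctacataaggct
The element begins 36 bases before the start site. Hspa8 and Hspe1 also had these letters, with log2 differences of -0.12 and 0.21 (edgeR adjusted p = 0.63 and 0.54), as did Hspd1 and Dnaja1, with 0.77 and 0.73 (0.083 and 0.10). In the entries of Chordc1 and Dnaja1 the element lay after the start site, and in that of Hspa1a these letters were not in the window.

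The remaining lists had few calls with all libraries, and more without TOE_4d_24h. Of 26 interferon-stimulated genes Mx2 alone fell (log2 difference -1.56, edgeR adjusted p = 0.035), a share that did not exceed the 6.28% of all genes. The list median was -0.42, against -0.40 in pre-B cells. Without TOE_4d_24h 8 of the 26 fell and 0 rose, namely Mx1, Mx2, Irf7, Irf9, Gbp5, Ly6e, Oasl and Xaf1, beside 14.2% and 12.5% of all genes. Of 33 activation and immediate-early genes only Ebi3, a cytokine subunit, rose (0.78, edgeR adjusted p = 0.045), a share that did not exceed the 5.34% of all genes. Without TOE_4d_24h Dusp5 rose too and Atf3, Dusp2, Egr1 and Jund fell, so that the shares called did not exceed the 12.5% and 14.2% of all genes. With all libraries DESeq2 called 5 higher and 1 lower, beside 7.29% and 7.84% of all genes. Of 16 glucocorticoid-responsive genes Cebpd alone fell (-1.15, edgeR adjusted p = 0.031), with 0.13 in pre-B cells, beside 6.28% of all genes lower. DESeq2 called 3 lower, beside 7.84% of all genes. Without TOE_4d_24h, 5 of the 16 fell (Cebpd, Mt1, Rhob, Tsc22d3 and Txnip) and Fkbp5 rose, beside 14.2% and 12.5% of all genes. Stmn1 and Hmgb2 fell among 20 cell cycle genes (-0.69 and -0.59, edgeR adjusted p = 0.031 and 0.028), in cells chosen to have 0 UMIs of Mki67, beside 6.28% of all genes lower, and Tubb5 fell too without TOE_4d_24h, beside 14.2%. Of 7 exosomal markers that the study followed, Cd81 and Flot1 fell (Flot1 by -0.62, edgeR adjusted p = 0.031) and 5 did not pass, beside 6.28% of all genes lower and 5.34% higher, among them Cd63 (-0.81, edgeR adjusted p = 0.22) and Tsg101 (-0.18, edgeR adjusted p = 0.52). Without TOE_4d_24h, Cd63 fell too (-1.24, edgeR adjusted p = 0.0078), and Flot2 and Rab27a rose (edgeR adjusted p = 0.021 and 0.0049), beside 14.2% and 12.5% of all genes.

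The largest rises at 4 h were in genes with low levels. Slc5a3, which imports myo-inositol, stood at 30.0, 36.9, 12.2 and 39.9 CPM at 4 h and 1.42, 5.30, 6.79 and 1.33 CPM otherwise (log2 difference 2.77, edgeR adjusted p = 0.027), against 3.09 in pre-B cells and 2.53 in neutrophils. Fam111a, a protease gene, stood at 66.5 to 124 CPM and 2.52 to 39.0 CPM (2.80, edgeR adjusted p = 0.033), against 2.77 and 1.95. Dll1, a Notch ligand, stood at 10.5, 13.5, 4.76 and 11.5 CPM and 1.42, 2.21, 1.36 and 1.00 CPM (2.58, edgeR adjusted p = 0.0093). Nova1, an RNA-binding protein gene, stood at 5.26 to 17.1 CPM and 0.442 to 2.33 CPM (2.63, edgeR adjusted p = 0.013), against 1.06 in pre-B cells and 0.97 in neutrophils. The others of the 8 largest were Ube2s-ps3 (3.45), Pou3f1 (2.63), Cacng6 (2.47) and Rhpn2 (2.42). The 8 were picked as the largest rises among the 5.34% of all genes called higher.

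The largest falls were led by genes of other cells. Prss29 and Prss34, proteases of mast cells and basophils, stood at 0 to 0.928 and 0 to 0.464 CPM at 4 h and at 16.9 to 97.3 and 7.29 to 57.0 CPM otherwise. They fell by 6.26 and 6.02 on the log2 scale in neutrophils too. The osteoblast genes Bglap and Ibsp stood at 3.94 to 19.5 and 0.696 to 5.05 CPM at 4 h and at 194 to 871 and 19.7 to 87.1 CPM otherwise. Siglech, a gene of plasmacytoid dendritic cells, stood at 0.381 to 5.76 CPM and 13.0 to 39.3 CPM, with a log2 difference of -3.72 in gated B cells, -0.36 in pre-B cells and -1.33 in neutrophils. The others of the 8 largest were Car3, Serpinf1 and Snord118, with log2 differences of -3.95, -3.41 and -3.30. Adjusted p-values of the 8 lay between 0.0053 and 0.020 in edgeR, beside 6.28% of all genes called lower.

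A direct comparison with resting pre-B cells of the same libraries asked which hour differences were unlike those of the most alike cells. An edgeR quasi-likelihood test of the interaction of population and hour, with a term for each library, called 5 of 12999 genes whose signed difference (4 h less other hours) was above that of pre-B cells (0.0385%) and 4 whose difference was below it (0.0308%). Bank1 stood at 714, 869, 963 and 581 CPM at 4 h and 384, 357, 392 and 781 CPM otherwise in gated B cells. TOE_4d_24h lay within the 4 h group, and the other 3 lay below it. In pre-B cells Bank1 stood at 34.1, 43.3, 36.7 and 25.2 CPM and 26.9, 28.8, 24.1 and 60.1 CPM. The hour difference in gated B cells exceeded that in pre-B cells by 0.69 (SE 0.08, edgeR adjusted p = 0.032), while the hour difference within gated B cells did not pass (0.69, edgeR adjusted p = 0.11), and without TOE_4d_24h it was 0.97 (0.0058).

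Pithd1, a gene linked to proteasome regulation, stood at 179, 135, 105 and 151 CPM at 4 h and 54.4, 70.7, 49.6 and 41.6 CPM otherwise in gated B cells, and at 41.8 to 53.0 and 37.5 to 43.5 CPM in pre-B cells. It did not overlap between hours in gated B cells, and the differences between the populations came to 1.19 (SE 0.13, edgeR adjusted p = 0.032). Akap2, an anchor of protein kinase A, and Pcgf5, a Polycomb gene, had differences of 0.56 and 0.59 between the populations. Fcrl1, a receptor of mature B cells, stood at 82.6 to 94.2 CPM in gated B cells at 4 h and 75.8 to 221 CPM otherwise, and in pre-B cells at 50.8 to 64.0 and 75.2 to 265 CPM, so that the difference of 0.87 arose mainly from pre-B cells. Ell3, an elongation factor gene (-0.63), stood at 76.6 to 104 and 69.8 to 128 CPM in gated B cells and at 61.2 to 104 and 43.2 to 72.2 CPM in pre-B cells. The other 3 were the collagen genes Col5a1 (-3.04), Col5a2 (-2.23) and Col6a2 (-4.03), with summed markers of mesenchymal cells as given above. All 9 had edgeR adjusted p-values of 0.032 to 0.046. Leaving out TO_2d_0h, TO_4d_4h, TOE_2d_4h or TOE_4d_4h ended all 9 calls, while 3 genes were called without TO_2d_4h, 8 without TOE_2d_24h, 20 without TO_4d_24h and 73 without TOE_4d_24h. For arm and for day the same test called 0 genes in edgeR (680 and 468 at an unadjusted p under 0.05), and it was not run in DESeq2. With the low-count filter set over population and hour, it called 4 genes for day (3 higher and 1 lower).

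**Figure D5:**
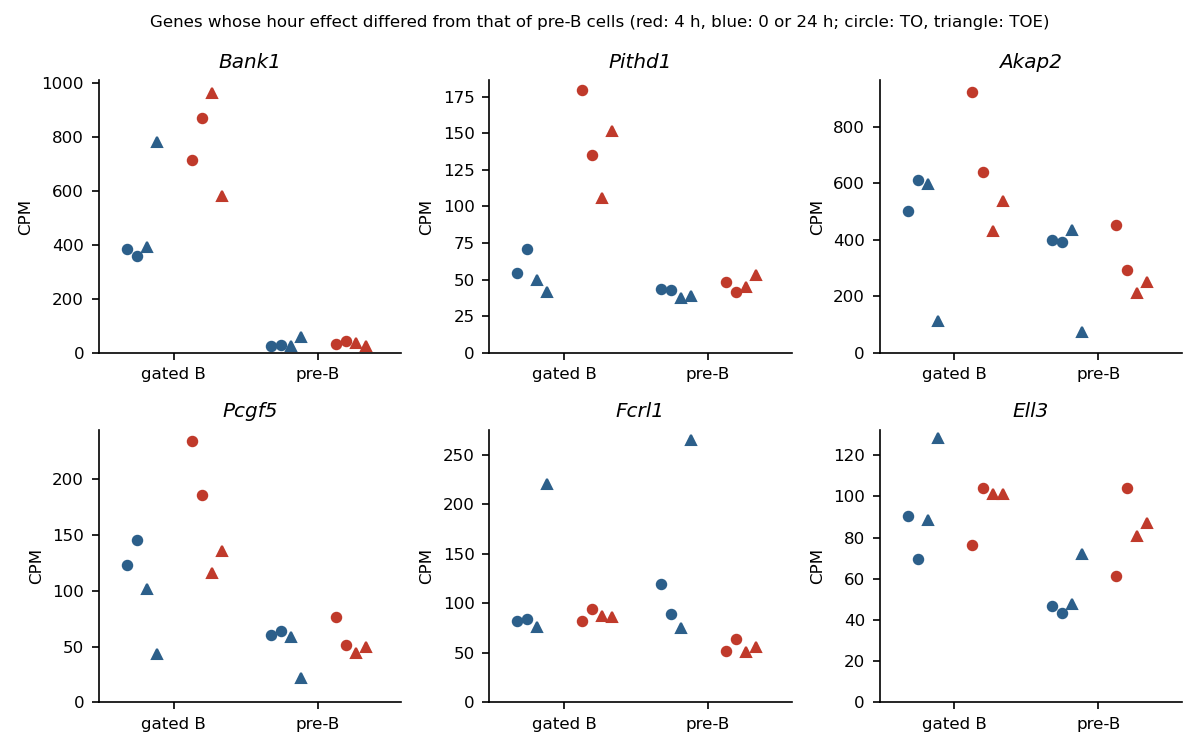
Level (CPM) of 6 of the 9 genes whose hour difference was unlike that of pre-B cells, in gated B cells and resting pre-B cells (x axis), 1 point per library; red marks 4 h, blue 0 or 24 h, circles TO and triangles TOE. Pithd1 spreads by hour in gated B cells and not in pre-B cells, Bank1 does so except for TOE_4d_24h, which lies within the 4 h group, and Fcrl1 and Ell3 spread by hour mainly in pre-B cells.

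Shock waves were the treatment of interest, and no gene of the gated B cells passed the test between the arms. Between TOE and TO, 0 of 12033 genes passed in edgeR in either direction (0%), with 463 at an unadjusted p under 0.05 and 2 calls in DESeq2 (Ifi27 higher and Itga9 lower). With 1 library left out the calls stayed at 0, and the number at an unadjusted p under 0.05 ran from 149 without TO_4d_24h to 1585 without TOE_2d_24h. It was also 209 without TO_2d_4h, 231 without TOE_2d_4h and 1284 without TOE_4d_4h. The 5 genes with the lowest p were Itga9, Ifi27, Matn2, Clec4d and Ptprn, all at an edgeR adjusted p of 0.77. Ifi27, an interferon-stimulated gene, stood at 16.4, 16.8, 35.7 and 32.5 CPM in TO (TO_2d_0h, TO_2d_4h, TO_4d_4h and TO_4d_24h) and at 48.9, 57.0, 58.2 and 70.6 CPM in TOE (TOE_2d_4h, TOE_2d_24h, TOE_4d_4h and TOE_4d_24h). The arms did not overlap, with a log2 difference of 1.20. Itga9, an integrin gene, stood at 61.1, 27.0, 23.9 and 45.5 CPM in TO and 10.7, 31.8, 11.0 and 20.3 CPM in TOE, which overlapped (-1.20). The median log2 difference by arm was 0.14 for receptor signalling genes, -0.17 for MHC class II, -0.28 for heat shock chaperones and -0.37 for activation genes, against 0.00 over all genes, with 0 calls in each of these lists.

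Between day 4 and day 2 there were also 0 calls of 12033 in edgeR in either direction (0%), with 182 at an unadjusted p under 0.05. DESeq2 called 6, namely Naip6, Lcn2, Camp, Hp and a serine tRNA gene higher and LOC100360413 lower on day 4. The 5 genes with the lowest p in edgeR, at an adjusted p of 1.00, were Ccser1, Naip6, Ccnd1, Lcn2 and Hp. Lcn2, a gene of neutrophil granules, stood at 5.06, 53.6, 113 and 84.7 CPM on day 2 (TO_2d_0h, TO_2d_4h, TOE_2d_4h and TOE_2d_24h) and at 228, 72.7, 378 and 252 CPM on day 4 (TO_4d_4h, TO_4d_24h, TOE_4d_4h and TOE_4d_24h). The days overlapped, and the neutrophil marker list had a median log2 difference of 0.79 between days in the same cells.

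Within matched pairs, which hold 1 library per arm and allow no test, the count of genes past 2-fold differed widely. At 2d 4h, 5.61% of 8327 genes with at least 100 UMIs over the pair were at least 2-fold higher in TOE and 2.55% lower. At 4d 4h these were 1.05% and 0.645% of 8219 genes, and at 4d 24h 11.9% and 8.2% of 7732 genes. The last pair holds TOE_4d_24h, the library that stood apart.

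At 2d 4h the largest rise was Igha, the IgA heavy chain, with 28590 UMIs (5441 CPM) in TOE and 697 UMIs (174 CPM) in TO. The 5 highest cells carried 92.5% of the TOE UMIs, so that this level came from few cells. St3gal3, Trpm6, Gimap7 and Gcnt4 followed with log2 ratios of 2.46 to 2.18. The largest falls were Pcp4l1 (2 UMIs against 172), Hpse2, Angpt1, Hpgds and Traip, with log2 ratios of -6.50 to -2.34. In the 4d 4h pair the log2 ratio of Igha was -1.33, and in the 4d 24h pair it was 0.91.

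At 4d 4h the largest rises were Prg4, Alox15, Hba-a3, Hmox1 and Apoe, of which Hmox1 and Apoe are expressed by macrophages. Apoe stood at 717 CPM (95% Poisson interval 692 to 742) in TOE and 96.5 CPM (87.4 to 106) in TO, and its log2 ratios in the 3 pairs were 0.69, 2.89 and -2.32. The summed macrophage and monocyte markers were 2726 CPM in the gated B cells of TOE_4d_4h and 1197 to 1409 CPM in the other 4 h libraries. The largest falls were Tnc, Stfa2l3, Stfa2l2, Sirpal1 and Postn, with log2 ratios of -4.94 to -3.21, and Stfa2l3 stood at 380 and 1249 CPM in the neutrophils of TOE and TO.

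At 4d 24h the collagen genes Col12a1 and Col3a1 led the rises, followed by Gys1, Spire2 and a cysteine tRNA gene, with log2 ratios of 4.93 to 3.48. The haemoglobin genes Hba-a1, Hba-a2 and Hbb led the falls, followed by C1qb and Il1b. Hba-a1 had 25 UMIs (8.33 CPM) in TOE and 3177 UMIs (702 CPM) in TO, and stood at 64.3 and 1170 CPM in the neutrophils of the same libraries. The log2 ratio of Hba-a1 was -0.28 in the 2d 4h pair and 1.82 in the 4d 4h pair. Col3a1 had 1.06 and -1.24 in these pairs.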

How the data were processed

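Per the labels and the study's methods, cells of the osteotomy site were profiled on the 10x Chromium 3′ platform. The authors deposited raw counts, 1 matrix of UMIs per library, from Cell Ranger 9.0.0, with no normalization applied. The submitters' processing notes also name GRCh38, mRatBN7.2, Seurat and R 4.0.3 with no roles. The gate was applied in Python 3.11.15 to all 116711 barcodes, with Scrublet scores from scanpy 1.11.5 (none removed in the main analysis). UMIs were summed per library (3001479 to 5254735 in gated B cells) and tested in R 4.3.3 with edgeR 4.0.16 (TMM, filterByExpr, gate genes not tested), with DESeq2 1.42.0 as an alternative. CPM are UMIs of a gene per 1000000 UMIs of the cells named. Intervals and floors are at 95% and cover counting error only. Nothing states separate animals for the libraries. The members and gene lists were chosen with earlier results of these data known, so no p-value is adjusted over a list. Named genes were the markers and gate genes, the 8 largest rises and falls past the threshold (or the 5 lowest p), the 5 largest rises and falls per pair, and list genes. Other genes singled out were picked with their values known. The fit by hour was tested on simulated data, with the changed genes drawn from those with more UMIs. It called 57 of 100 genes changed 2-fold, 98 of 100 changed 4-fold and 12 of 11630 unchanged. The simulated counts were drawn gene by gene, with no arm or day difference and no shift shared by the genes of a library. In the real data single libraries moved the total of calls, so these rates do not carry over to it.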

Additional observations from a re-analysis of the deposited data

Results flagged for a closer look

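A sample far from the other 3 of its hour group was found in 6 of 46 groups of 4 libraries. The groups were not independent, and those of gate genes, whose values chose the cells, were among them. The 6 are thus a count and not a test against chance. Bank1 stood at 781 CPM in the gated B cells of TOE_4d_24h and at 357 to 392 CPM in the other 0 or 24 h libraries. The same library had 24328 CPM of summed neutrophil markers (6317 to 8132 in the others), 370 CPM of summed endothelial markers, among them Pecam1 (97.2 to 124), and 346 CPM of summed mast cell and basophil markers (28.3 to 62.7). Among the 4 h libraries, TOE_4d_4h had 2726 CPM of summed monocyte and macrophage markers (1197 to 1409) and TO_4d_4h 87.4 CPM of mast cell and basophil markers (6.01 to 13.8).

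The hour difference in gated B cells was unlike that in resting pre-B cells, by edgeR's test of the interaction, for 9 genes. The signed difference (4 h less other hours) in gated B cells lay above that in pre-B cells by 1.19 on the log2 scale for Pithd1, 0.87 for Fcrl1, 0.69 for Bank1, 0.59 for Pcgf5 and 0.56 for Akap2. Fcrl1 stood at 50.8 to 64.0 CPM at 4 h and 75.2 to 265 CPM otherwise in pre-B cells, and its hour difference within gated B cells did not pass. It lay below that of pre-B cells, with values of -4.03 for Col6a2, -3.04 for Col5a1, -2.23 for Col5a2 and -0.63 for Ell3.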

How the results depend on the processing

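The direction of the share difference was not stable where it was near 0. The gated B cell share by arm differed by -0.0261 percentage points with all cells, 0.00705 with Scrublet scores above 0.25 left out, 0.00497 under the filter of 500 genes and 10% mitochondrial UMIs, and ranged from -0.304 (without TO_2d_4h) to 0.208 (without TOE_4d_24h) when 1 library was left out. The gated B cell share by day differed by -0.177 percentage points, 0.446 as a share of B lineage cells (exact permutation p = 0.514) and ranged from -0.481 (without TO_2d_4h) to 0.0315 (without TOE_4d_24h). By hour the share differed by -0.310 percentage points, -0.618 under the filter of 500 genes and 10% mitochondrial UMIs, and -0.546 with cells thinned to 2000 UMIs. As a share of B lineage cells it differed by -0.133. The cause was not tested.

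The number of genes by hour was 1399 in all, between 1041 and 1820 under other scalings, filters, gates and DESeq2, and between 51 and 3284 when 1 library was left out. Of the 55 named and list genes called by hour, 0 reversed under any of these, and 6 (without TO_2d_4h) to 54 (without TOE_4d_24h) stayed past the threshold when 1 library was left out. The 55 include 6 mitochondrially encoded genes, whose UMIs the filter on cells used. The number whose hour difference was unlike pre-B cells was 9, 18 with high Scrublet scores left out, and 0 to 73 when 1 library was left out. DESeq2 called 2 genes by arm and 6 by day where edgeR called 0. With no scaling beyond library size, 60.6% of the hour calls were higher, against 46.0% with TMM. The no-scaling fit and the filter over population and hour were chosen after seeing the data. The labels carry no replicate numbers. With only the 3 pairs of libraries matched for day and hour, and the pair as a term, edgeR called 0 genes by arm (926 at an unadjusted p under 0.05). With 756 to 1184 gated cells per library and 4 residual degrees of freedom, a gene that missed the threshold is not shown to be alike between groups.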
